A study of Rattus norvegicus with 24 samples.

Results

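The transcripts described here encode splicing factors and the kinases that phosphorylate some of them: every annotated gene whose symbol begins with Srsf, Hnrnp, Sf3 or Snrp, together with Clk1, Clk2, Clk3, Clk4 and Rsrp1. The rule found 52 genes among the 14217 named genes measured. They comprise 4 CLK kinases, Rsrp1, 11 genes with an Srsf symbol, 17 hnRNP genes, 9 SF3A and SF3B subunits, 7 Sm core genes and 3 proteins of the U1 and U2 snRNPs. Where a gene had several probe sets, the one used was chosen by its mean log2 intensity across the 8 groups, the highest being kept, so the level is given only as a description. The genes were also picked with earlier results of these arrays in view.

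The RNA came from INS-1E cells, a rat insulinoma line that makes insulin and serves as a model of the pancreatic beta cell. Cells of 4 groups received cytokines, a mix of IL-1b at 10 ng/ml, IFN-g at 50 ng/ml and TNF-a at 25 ng/ml, with either BRD0476 at 10 uM or the vehicle DMSO, for 12 or 6 h. The other 4 groups received no cytokines, with BRD0476 at 10 uM or DMSO, for 12 or 6 h. BRD0476 is a small molecule known here by its code name. Each of the 8 groups has 3 Affymetrix arrays, which makes 24 arrays of 1 line, and the labels do not say whether the arrays of a group came from separate cultures. The p-values therefore measure only the spread between these arrays, which may be technical. Because the arrays measure bulk RNA, fewer cells with a transcript and less of it per cell cannot be told apart.

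Splicing of pre-messenger RNA is carried out by the spliceosome, whose small nuclear ribonucleoproteins (snRNPs) are built on a ring of Sm proteins. Within the U2 snRNP, the SF3A and SF3B complexes help to bind the branch point of the intron. SR proteins (the Srsf genes) mostly promote the use of nearby exons, hnRNPs often oppose it, and the CLK kinases phosphorylate SR proteins, which affects their activity and their place in the nucleus. Many SR protein and hnRNP genes, and Clk1 and Clk4, also make alternatively spliced transcripts of their own, some of which are degraded or kept in the nucleus.

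The 250 bases before the annotated start are shown for the CLK kinases and the SR protein genes with the largest opposite changes at 6 h, since Clk1 and Clk4 rose and Srsf5 and Srsf2 fell with cytokines and DMSO at 6 h. The sequences are from RefSeq (build GRCr8), are printed 5′ to 3′ on the strand of the gene, and carry in capitals TGACG and CCAAT on either strand (CGTCA and ATTGG when read on the opposite strand). The window of Clk1 is chr9:67453181-67453430 on the minus strand, that of Clk4 chr10:36025490-36025739 on the plus strand, that of Srsf5 chr6:106336506-106336755 on the plus strand and that of Srsf2 chr10:102554142-102554391 on the minus strand.
Clk1: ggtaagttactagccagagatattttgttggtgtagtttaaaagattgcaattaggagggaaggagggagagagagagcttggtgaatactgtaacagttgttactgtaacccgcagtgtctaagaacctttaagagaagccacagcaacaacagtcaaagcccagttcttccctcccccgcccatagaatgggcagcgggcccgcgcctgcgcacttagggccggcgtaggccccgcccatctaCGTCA
Clk4: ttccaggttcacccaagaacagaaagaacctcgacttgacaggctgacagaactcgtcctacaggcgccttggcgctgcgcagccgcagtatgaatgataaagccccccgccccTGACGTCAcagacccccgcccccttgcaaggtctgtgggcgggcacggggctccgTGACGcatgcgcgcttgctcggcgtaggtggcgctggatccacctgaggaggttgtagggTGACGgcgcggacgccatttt
Srsf5: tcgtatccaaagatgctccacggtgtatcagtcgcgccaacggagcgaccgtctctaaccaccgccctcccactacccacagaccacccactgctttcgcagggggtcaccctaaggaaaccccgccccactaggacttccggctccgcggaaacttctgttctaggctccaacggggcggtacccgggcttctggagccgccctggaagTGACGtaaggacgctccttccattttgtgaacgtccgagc
Srsf2: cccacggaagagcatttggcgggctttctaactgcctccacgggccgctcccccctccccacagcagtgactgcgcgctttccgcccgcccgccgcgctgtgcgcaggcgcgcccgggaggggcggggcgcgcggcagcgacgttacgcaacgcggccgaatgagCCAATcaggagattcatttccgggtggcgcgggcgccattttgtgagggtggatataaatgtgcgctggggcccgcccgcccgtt
The Clk4 window held 4 TGACG matches, overlapping ones included, and 1 full TGACGTCA, the cyclic AMP response element, with which 2 of the 4 overlap. Clk1 had 1 TGACG match that ends at the start site, Srsf5 had 1, and Srsf2 had none but 1 CCAAT. A second annotated start of Clk4 had no TGACG match in its window.

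A promoter window was found for 48 of the 52 genes, 53 windows in all. TGACG, the core of the cyclic AMP response element, stood in 24 of the 48 genes and in 47.2% of the 53 windows, against 24.9% of the windows of the tested genes and 18.2% of all 33469 promoters in the table. The CCAAT box stood in 49.1% of the windows, against 34.6% for the tested genes, and the GC box GGGCGG stood in 60.4%, against 52.3%. The E box CACGTG stood in 7.55% and in 7.57%. The interferon-gamma-activated site TTCNNNGAA was found in 3 of the 53 windows and the interferon-stimulated response element in 0, with 6.37% and 2.67% of the windows of tested genes. All motifs were searched on both strands. TGACG was present in 5 of 11 members that rose with cytokines at 6 h and had a window, and in 10 of 22 that fell. These matches are letters in a window and describe no binding. The median GC content was 60.4% in the members' windows and 51.2% in all promoters, and its part in these shares was not tested.

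Values are log2 intensities, changes are differences of group means on that scale with their standard error, and the threshold for a call was an adjusted p of 0.05 (limma with Benjamini-Hochberg adjustment over the 14217 genes). All 9 measured beta-cell markers lay above the median gene, with Ins1 at 14.54, as did 1 of 6 markers of other islet cells (Gcg, 10.14). None of the 6 leukocyte, 5 fibroblast, 3 endothelial and 6 exocrine and duct markers did. Over the 8 groups the log2 summed level lay between 16.35 and 16.6 for the beta-cell markers, 9.49 and 10.62 for other islet cells, 6.46 and 6.63 for leukocytes, 6.47 and 7.26 for fibroblasts, 5.70 and 6.89 for endothelium and 6.30 and 6.46 for exocrine and duct cells, and the part of these shifts in the results was not tested. Arrays of 1 group correlated with r between 0.992 and 0.998 over all genes, but 3 arrays stood apart from their group. Among genes above the median with a standard deviation over 0.3 within the group, replicate 3 of cytokines with DMSO was the lowest array for 436 of 490 genes at 6 h and 496 of 588 at 12 h, and replicate 1 of cytokines with BRD0476 at 12 h was the lowest for 262 of 271. The counts of members called are given with and without these arrays where their groups take part, as are the genes whose size or call rests on them. Hnrnpul1, Sf3b4 and Hnrnpd were themselves over that limit with cytokines and DMSO at both times, with replicate 3 lowest. Their larger changes without these arrays follow from that choice and are not separate evidence. By the same limit, replicate 1 of cytokines with BRD0476 at 6 h was the lowest for 70 of 70 genes. These were fewer genes than in the 3 groups above, and that array was kept when the 3 arrays were left out. The difference between 3′ and 5′ probe sets of Gapdh, a measure of RNA quality, averaged between 0.10 and 0.17 in the 4 groups with cytokines, against -0.03 to 0.03 in the 4 without. The same difference of actin averaged 2.13 with cytokines and BRD0476, 1.73 with cytokines and DMSO, 1.60 with BRD0476 and 1.32 with DMSO at 12 h, and at 6 h 1.65 with cytokines and BRD0476, 1.58 with cytokines and DMSO, 1.57 with BRD0476 and 1.42 with DMSO. For the arrays that stood apart, the actin difference was 1.315 in replicate 3 of cytokines with DMSO at 6 h, against 1.709 and 1.713 in its group. It was 1.768 in replicate 1 of cytokines with BRD0476 at 12 h, against 2.328 and 2.308. Replicate 3 of cytokines with DMSO at 12 h lay near its group, at 1.748 against 1.71 and 1.725. The part of RNA quality in the results was not tested.

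With cytokines and DMSO at 6 h, the 4 CLK kinase transcripts rose, while 6 of 11 Srsf, 9 of 17 hnRNP and 6 of 7 Sm genes fell. Of the 52 genes, 11 were higher and 25 lower than in cells without cytokines, or 69.2%, beside 51.7% of all genes tested. Members were called lower in a larger share (25 of 52) than the 27.4% of all genes, and called higher in a share (11 of 52) close to the 24.3% of all genes. By mean level, 49 of the 52 members lay above the median gene. The part of level in the shares called, here and in the other comparisons, was not tested. The median change was -0.16 for the members and 0.00 for all genes. Without the 3 arrays that stood apart, 39 members were called. The groups did not overlap for 36 of the 52, beside 53.3% of all genes. The group with cytokines and DMSO at 6 h held the lowest mean of the 8 groups for 26 of the 52 genes and the highest for 11.

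**Figure D1:**
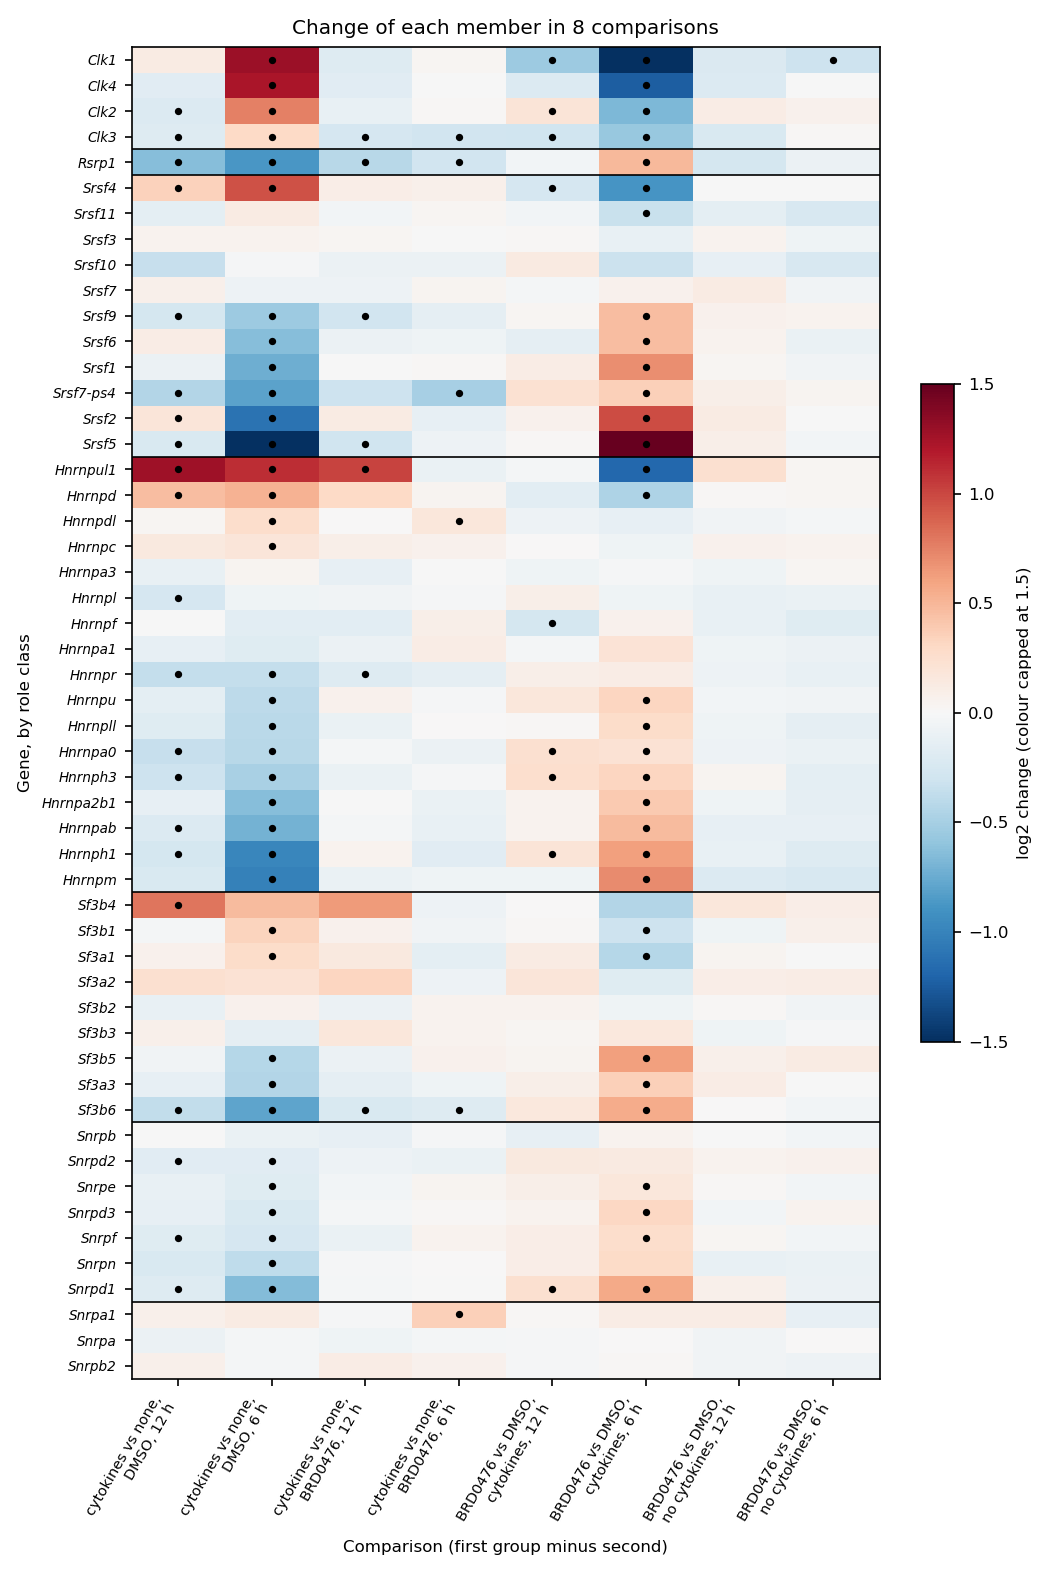
Log2 change of each of the 52 genes (rows, by role class) in 8 comparisons (columns), red where the first group of the comparison is higher and blue where it is lower, with colour capped at 1.5. Dots mark an adjusted p under 0.05. Srsf5 was 1.73 lower with cytokines and DMSO at 6 h and 1.62 higher with BRD0476 in cytokine-treated cells at 6 h.

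Clk1, a kinase of SR proteins, read 9.60, 9.65 and 9.60 in cells with cytokines and DMSO at 6 h, against 8.36, 8.50 and 8.14 in cells with DMSO and no cytokines. The 3 cytokine arrays lay above all 3 others, and the transcript was 2.43-fold higher (1.28 ± 0.08, adjusted p = 1.21e-11). Clk4, the close relative of Clk1, read 8.47, 8.68 and 8.47 with cytokines and DMSO, against 7.29, 7.57 and 7.09 with DMSO and no cytokines, and rose by 1.22 ± 0.10 (adjusted p = 7.66e-10). Its groups did not overlap either.

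Clk2 read 8.83, 8.95 and 8.89 with cytokines and DMSO at 6 h, against 8.08, 8.23 and 8.09 with DMSO alone, a rise of 0.76 ± 0.07 (adjusted p = 1.49e-08). Clk3 moved least of the 4 kinases, with 8.30, 8.21 and 8.44 with cytokines against 8.06, 7.93 and 8.08 without, a rise of 0.29 ± 0.07 (adjusted p = 0.00174). All 4 CLK kinases were thus called higher, beside 24.3% of all genes. In none of them did the 2 groups overlap, as was so for 53.3% of all genes. Rsrp1, a gene for an arginine- and serine-rich nuclear protein, went the other way. It read 7.34, 7.41 and 7.42 with cytokines, against 8.26, 8.18 and 8.34 without, and fell by 0.87 ± 0.09 (adjusted p = 2.25e-08).

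**Figure D2:**
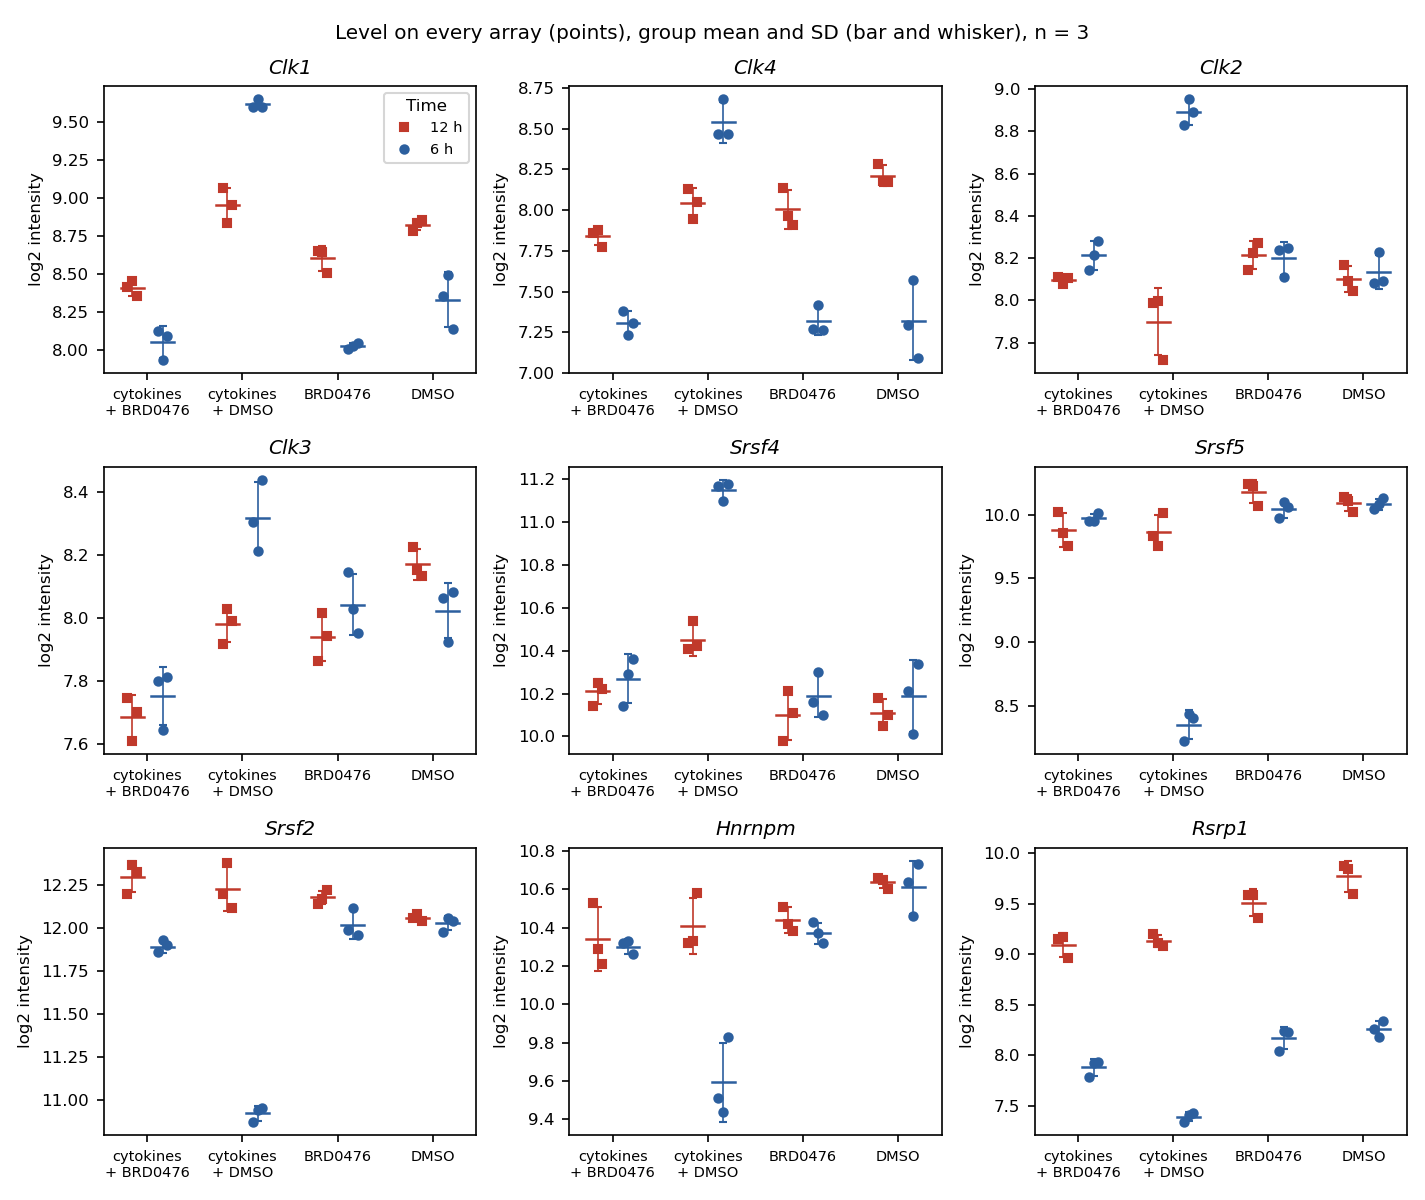
Log2 intensity of 9 genes on every array (vertical axes, each with its own range), for cytokines with BRD0476, cytokines with DMSO, BRD0476 and DMSO (left to right), with squares for 12 h and circles for 6 h. Bars and whiskers are the mean and SD of 3 arrays. For Clk1, Clk2, Clk4 and Srsf4 the 3 arrays with cytokines and DMSO at 6 h lie above all other arrays of the gene, and for Srsf5 and Srsf2 below them.

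Of the 11 Srsf genes, 6 fell, 1 of them the pseudogene Srsf7-ps4, 1 rose and 4 were not called at 6 h, with a median change of -0.55. The share called was 63.6%, beside 51.7% of all genes (24.3% higher and 27.4% lower). Srsf5, an SR protein, read 8.22, 8.43 and 8.40 with cytokines and DMSO, against 10.04, 10.08 and 10.13 with DMSO alone. The 2 groups were far apart, and the transcript was 3.32-fold lower (-1.73 ± 0.08, adjusted p = 9e-14), the largest change of any member in this comparison. Srsf2, an SR protein also known as SC35, read 10.87, 10.94 and 10.95, against 11.98, 12.06 and 12.04, and fell by 1.11 ± 0.07 (adjusted p = 7e-12). Srsf1, an SR protein also called ASF/SF2, fell by 0.73 ± 0.09, Srsf6 by 0.63 ± 0.08 and Srsf9 by 0.55 ± 0.05, and in each the groups did not overlap.

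Srsf4 was the Srsf gene that rose. It read 11.17, 11.10 and 11.18 with cytokines and DMSO at 6 h, against 10.21, 10.01 and 10.34 with DMSO alone, so that every cytokine array was higher, by 0.96 ± 0.08 on average (adjusted p = 3.32e-09). The probe set named Srsf7-ps4, an annotated pseudogene of Srsf7, read 6.59, 6.83 and 6.94, against 7.38, 7.85 and 7.55, and fell by 0.81 ± 0.14 (adjusted p = 4.33e-05). Signal from a pseudogene cannot be told apart from that of its parent gene where their sequences agree. The probe sets used for Srsf3 and Srsf7 were dim, with means of 3.58 and 4.39 over all arrays, below the lower quartile of genes at 4.49, and neither was called in any of the comparisons between groups described here.

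The hnRNPs, which bind nascent RNA, fell for the most part: 9 of 17 were lower, 4 higher and 4 not called, with a median change of -0.36. The share called was 76.5%, beside 51.7% of all genes (24.3% higher and 27.4% lower). Hnrnpm read 9.51, 9.44 and 9.83 with cytokines and DMSO at 6 h, against 10.64, 10.46 and 10.73 with DMSO alone, and fell by 1.02 ± 0.10 (adjusted p = 1.7e-08). Hnrnph1, which binds G-rich elements, read 10.82, 11.06 and 10.97, against 11.88, 11.94 and 11.98, and fell by 0.98 ± 0.06 (adjusted p = 2.22e-11). In both genes all 3 cytokine arrays were below all 3 others. Hnrnpab fell by 0.70 ± 0.06, Hnrnpa2b1 by 0.63 ± 0.09, Hnrnph3 by 0.49 ± 0.09, Hnrnpa0 by 0.41 ± 0.05, Hnrnpll by 0.40 ± 0.09, Hnrnpu by 0.39 ± 0.10 and Hnrnpr by 0.36 ± 0.05. Hnrnpdl rose by 0.27 ± 0.05 and Hnrnpc by 0.18 ± 0.06.

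Hnrnpul1 and Hnrnpd rose, and their size rests on which arrays are used. Hnrnpul1 read 9.05, 9.40 and 8.19 with cytokines and DMSO at 6 h, against 7.80, 7.74 and 7.78 with DMSO alone. The low value of 8.19 came from the array that stood apart, though it still lay above the arrays without cytokines. The change was 1.10 ± 0.34 (adjusted p = 0.0089), 1.45 without the 3 arrays apart, and 0.84 with an adjusted p of 0.0637 without replicate 2. Hnrnpd, also called AUF1, read 11.53, 11.68 and 11.02, against 10.90, 10.84 and 10.91, a rise of 0.52 ± 0.15 (adjusted p = 0.00593). The change of Hnrnpd was 0.72 without the arrays apart and 0.39 without replicate 2 (adjusted p = 0.0504).

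Among the 9 SF3A and SF3B subunits, 3 fell, 2 rose and 4 were not called, with a median of 0.06. The share called was 55.6%, near the 51.7% of all genes (24.3% higher and 27.4% lower). Sf3b6, the SF3B subunit that contacts the branch point region and is also known as p14, read 11.23, 11.02 and 11.23 with cytokines and DMSO at 6 h, against 11.89, 12.05 and 11.93 with DMSO alone. It was lower on every cytokine array and fell by 0.80 ± 0.07 (adjusted p = 2.47e-09). Sf3a3 fell by 0.44 ± 0.07 and Sf3b5 by 0.43 ± 0.07, whereas Sf3b1, the large scaffold subunit, rose by 0.34 ± 0.08 and Sf3a1 by 0.28 ± 0.09. Sf3b4 read 10.55, 10.73 and 9.81, against 9.95, 9.95 and 9.77, and the groups overlapped through the array that stood apart. Its change was 0.47 ± 0.25 (adjusted p = 0.121) with all arrays and 0.75 without the 3 arrays apart. Those arrays were picked by genes that include Sf3b4, so the larger change follows from the choice.

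The Sm core, the ring around which the snRNPs assemble, was lower by smaller amounts: 6 of 7 genes fell, none rose, and the median change was -0.23. The share called was 85.7%, beside 51.7% of all genes (24.3% higher and 27.4% lower). Snrpd1 fell by 0.66 ± 0.07, Snrpn by 0.39 ± 0.16, Snrpf by 0.25 ± 0.07, Snrpd3 by 0.23 ± 0.07, Snrpe by 0.18 ± 0.05 and Snrpd2 by 0.16 ± 0.06, while Snrpb changed by -0.10 ± 0.07 and was not called. Snrpn was dim, with a mean of 4.64, and was not called when limma was adjusted over all probe sets (adjusted p = 0.053). Brighter probe sets annotated to both Snrpn and Snurf changed by -0.12 ± 0.12 and -0.19 ± 0.15 and were not called. The U1 protein gene Snrpa and the U2 protein genes Snrpa1 and Snrpb2 were not called, with changes between -0.03 and 0.13.

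**Figure D3:**
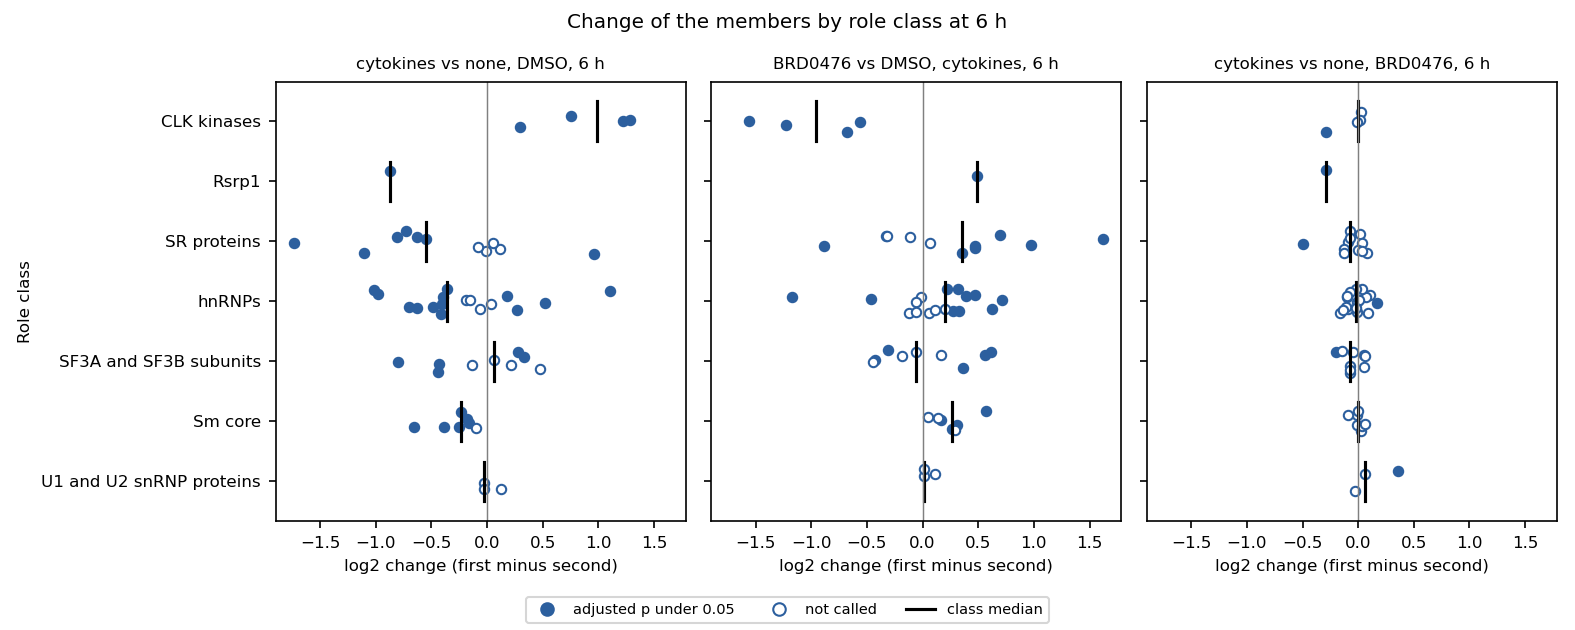
Log2 change (horizontal axis) of the members of each role class (vertical axis) in 3 comparisons at 6 h, filled where the adjusted p was under 0.05, with the class median as a bar. The median of the CLK kinases was 0.99 for cytokines against none with DMSO, -0.95 for BRD0476 against DMSO with cytokines and 0.00 for cytokines against none with BRD0476.

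The choice of probe set mattered for some genes. Of the 52 genes, 16 had several probe sets, 81 probe sets in all for the 52. In cytokines against none with DMSO at 6 h the probe set used was called for 11 of these 16. In 6 of the 11, every other probe set was called in the same direction. The 2 other probe sets of Srsf6 changed by -2.05 ± 0.11 and -1.61 ± 0.13, more than the one used, and those of Srsf1 (-1.26 ± 0.09), Srsf2 (-1.37 ± 0.13) and Hnrnph3 (-1.14 ± 0.09) also fell further. Sf3a1 had a second probe set that fell by 1.13 ± 0.07 where the one used rose, and Hnrnpdl had one that fell by 0.46 ± 0.06 where the one used rose. Hnrnpa3 was not called by the probe set used (0.04 ± 0.08), but 3 of its 4 other probe sets fell, by 0.46 to 0.76. Likewise Srsf10 changed by -0.01 ± 0.16 on the probe set used and fell on 3 of its 4 other probe sets. Their means over all arrays were 7.08, 4.66 and 3.595, the last 2 near or below the lower quartile of genes at 4.49. Hnrnpa1 rose by 0.78 ± 0.11 on another probe set, where the one used changed by -0.19 ± 0.08 and was not called. The files do not say which transcript forms the probe sets detect.

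**Figure D4:**
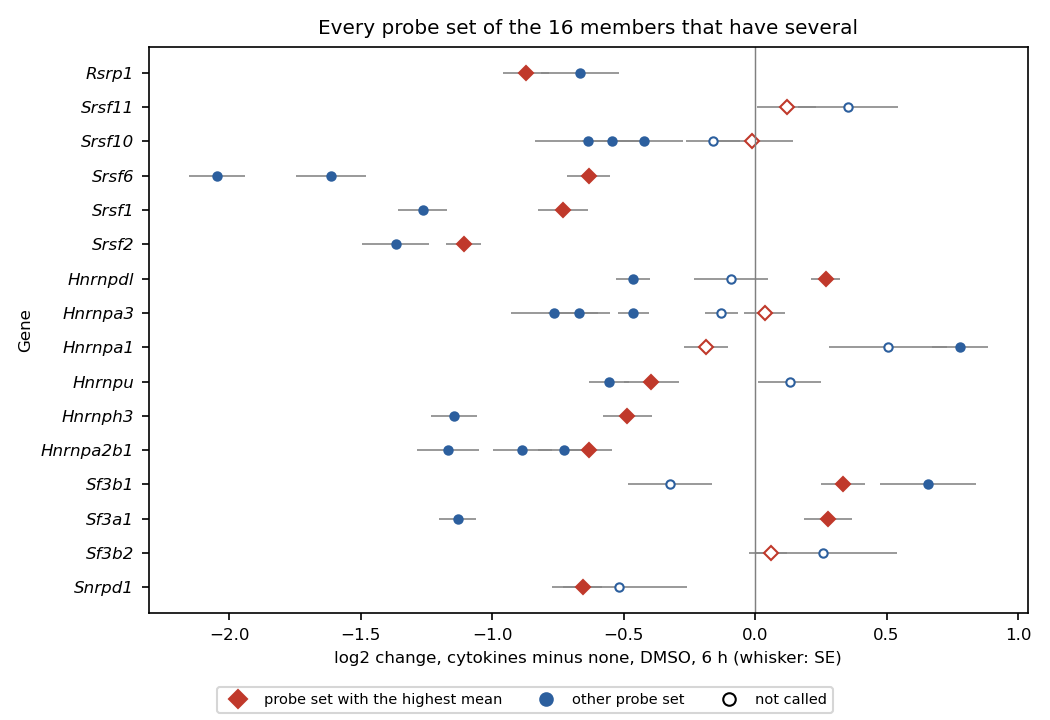
Log2 change with cytokines against none, DMSO, 6 h (horizontal axis, whisker: SE), on every probe set of the 16 genes (vertical axis) that have several, with diamonds for the probe set of highest mean, circles for the others, and open symbols where not called. The 3 probe sets of Srsf6 lie at -0.63, -1.61 and -2.05.

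At 12 h the response of these genes was smaller. With cytokines and DMSO at 12 h, 5 members were higher and 16 lower than without cytokines, or 40.4%, beside 45.9% of all genes, and the median change was -0.12 for members and -0.04 for all genes. Without the 3 arrays that stood apart, 24 members were called. The share called is near the background and below it, and the groups did not overlap for 30 members, beside 53.1% of all genes. Called falls took 16 of 52 members, beside 29.9% of all genes, and called rises 5 of 52, beside 16%.

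None of the 4 CLK kinases was called higher at 12 h and 2 were called lower, beside 16% and 29.9% of all genes. Clk1 read 9.07, 8.84 and 8.95 with cytokines and DMSO, against 8.78, 8.84 and 8.85 with DMSO alone, overlapping groups with a change of 0.13 ± 0.08 (adjusted p = 0.205). Clk4 read 8.13, 7.95 and 8.05, against 8.29, 8.18 and 8.17, a change of -0.17 ± 0.10 (adjusted p = 0.171), with all 3 cytokine arrays below the others. Clk2 fell by 0.20 ± 0.07 (adjusted p = 0.0281) and Clk3 by 0.19 ± 0.07 (adjusted p = 0.0371). Clk2 was 0.11 lower and not called (adjusted p = 0.216) without the 3 arrays apart, and both calls were lost in further fits that left out 1 array.

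Rsrp1 read 9.20, 9.11 and 9.08 with cytokines and DMSO at 12 h, against 9.87, 9.85 and 9.60 with DMSO alone, and fell by 0.64 ± 0.09 (adjusted p = 2.67e-06). Srsf4 stayed higher, with 10.41, 10.54 and 10.42 against 10.18, 10.05 and 10.10, a rise of 0.35 ± 0.08 (adjusted p = 0.00175). Neither gene's groups overlapped. Srsf5 read 9.83, 9.75 and 10.01, against 10.14, 10.11 and 10.02, a fall of 0.23 ± 0.08 (adjusted p = 0.0211), and Srsf2 read 12.20, 12.38 and 12.12, against 12.06, 12.08 and 12.04, a rise of 0.18 ± 0.07 (adjusted p = 0.0323). Both calls were lost in several fits that left out 1 array, with changes between -0.30 and -0.17 for Srsf5 and between 0.04 and 0.23 for Srsf2 over all alternatives.

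Hnrnpr read 10.25, 10.20 and 10.33 with cytokines and DMSO at 12 h, against 10.62, 10.64 and 10.60 with DMSO alone, and its fall of 0.36 ± 0.05 (adjusted p = 6.58e-06) was as large as the 0.36 ± 0.05 at 6 h. Sf3b6 fell by 0.37 ± 0.07, Hnrnpa0 by 0.34 ± 0.05, Hnrnph3 by 0.31 ± 0.09, Hnrnph1 by 0.26 ± 0.06, Srsf9 by 0.26 ± 0.05, Hnrnpl by 0.25 ± 0.06 and Hnrnpab by 0.21 ± 0.06. Srsf7-ps4 fell by 0.44 ± 0.14 (adjusted p = 0.012), a call lost without replicate 1 of cytokines with DMSO (adjusted p = 0.074). In the Sm core, 3 of 7 genes fell and none rose, or 42.9% called, near the 45.9% of all genes (16% higher and 29.9% lower). Snrpd1 fell by 0.19 ± 0.07, Snrpf by 0.18 ± 0.07 and Snrpd2 by 0.17 ± 0.06. Hnrnpm changed by -0.23 ± 0.10 (adjusted p = 0.0611).

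Hnrnpul1 read 8.67, 9.65 and 7.97 with cytokines and DMSO at 12 h, against 7.66, 7.29 and 7.52 with DMSO alone, and rose by 1.27 ± 0.34 (adjusted p = 0.00377), or by 1.67 without the 3 arrays apart. Sf3b4 read 10.81, 11.15 and 9.99, against 9.80, 9.74 and 9.99, and rose by 0.80 ± 0.25 (adjusted p = 0.0111), or by 1.13 without the arrays apart. Without replicate 2 of cytokines with DMSO, Sf3b4 changed by 0.55 and was not called (adjusted p = 0.0931). Hnrnpd read 11.35, 11.57 and 10.90, against 10.86, 10.80 and 10.76, a rise of 0.47 ± 0.15 (adjusted p = 0.0156). In each of the 3 genes the low cytokine array was replicate 3, which for Sf3b4 overlapped the arrays without cytokines. Without replicate 2 of cytokines with DMSO, the change of Hnrnpd was 0.32 and was not called (adjusted p = 0.119).

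The effect of cytokines in DMSO at 12 h minus that at 6 h was tested directly. It was called for 20 of the 52 genes (13 higher, 7 lower), or 38.5%, beside 28.8% of all genes (11.8% higher and 16.9% lower), and for 20 also without the 3 arrays apart. The difference was -1.39 ± 0.14 for Clk4, -1.16 ± 0.11 for Clk1, -0.96 ± 0.10 for Clk2, -0.61 ± 0.12 for Srsf4 and -0.48 ± 0.10 for Clk3. It was 1.5 ± 0.11 for Srsf5, 1.29 ± 0.09 for Srsf2, 0.79 ± 0.14 for Hnrnpm and 0.72 ± 0.09 for Hnrnph1. For Clk4 and Clk1 both sides of the difference moved. From 6 h to 12 h the mean of Clk4 went from 8.54 to 8.04 with cytokines and DMSO, and from 7.32 to 8.21 with DMSO alone. That of Clk1 went from 9.62 to 8.95 with cytokines and DMSO, and from 8.33 to 8.825 with DMSO alone.

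The levels without cytokines also moved with time for a few members. In cells with DMSO and no cytokines, 4 members were higher at 12 h than at 6 h and 0 lower, or 7.69%, beside 1.67% of all genes (0.464% higher and 1.21% lower). The groups did not overlap for 13 members, beside 19.3% of all genes. Rsrp1 read 9.87, 9.85 and 9.60 at 12 h, against 8.26, 8.18 and 8.34 at 6 h, and was 2.85-fold higher at 12 h (1.51 ± 0.09, adjusted p = 6.53e-10). Clk4 was higher at 12 h by 0.89 ± 0.10 (adjusted p = 6.91e-06), Clk1 by 0.49 ± 0.08 (adjusted p = 0.00101) and Hnrnph1 by 0.26 ± 0.06 (adjusted p = 0.0319). For Clk1, Clk4, Rsrp1 and Hnrnph1, the arrays at 12 h were all above those at 6 h. The Hnrnph1 call was lost in each of the 6 fits that left out 1 of these arrays and the Clk1 call in a fit with these arrays alone (adjusted p = 0.087). The labels do not give the time since plating or the time of day of each harvest, and their part in these differences was not tested.

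BRD0476 in cytokine-treated cells at 6 h lowered the 4 CLK kinase transcripts and raised Srsf5, Srsf2, Hnrnpm and Hnrnph1. With cytokines and BRD0476, 22 members were higher and 10 lower than with cytokines and DMSO, or 61.5%, beside 44% of all genes (24.7% higher and 19.4% lower), and 20 were not called. The median change was 0.13 for members and 0.00 for all genes, and 37 were called without the 3 arrays apart. The groups did not overlap for 38 members, beside 50.2% of all genes. This comparison and that of cytokines against none in DMSO share the 3 arrays with cytokines and DMSO at 6 h, so opposite signs of the 2 are not independent.

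Clk1 read 8.13, 7.94 and 8.10 with cytokines and BRD0476 at 6 h, against 9.60, 9.65 and 9.60 with cytokines and DMSO. All 3 BRD0476 arrays were lower, and the transcript was 2.95-fold lower (-1.56 ± 0.08, adjusted p = 1.78e-12). Clk4 read 7.38, 7.23 and 7.31, against 8.47, 8.68 and 8.47, a fall of 1.23 ± 0.10 (adjusted p = 1.52e-09). Clk2 fell by 0.68 ± 0.07 (adjusted p = 1.39e-07) and Clk3 by 0.57 ± 0.07 (adjusted p = 1.65e-06). All 4 CLK kinases were thus called lower with BRD0476, beside 19.4% of all genes. Rsrp1 read 7.78, 7.92 and 7.93, against 7.34, 7.41 and 7.42, and rose by 0.49 ± 0.09 (adjusted p = 7.97e-05).

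Among the Srsf genes, 6 were higher and 2 lower with BRD0476 in cytokine-treated cells at 6 h. The share called was 72.7%, beside 44% of all genes (24.7% higher and 19.4% lower). Srsf5 read 9.95, 9.95 and 10.01, against 8.22, 8.43 and 8.40 with cytokines and DMSO, and was 3.07-fold higher (1.62 ± 0.08, adjusted p = 1.09e-12). Srsf2 read 11.86, 11.93 and 11.90, against 10.87, 10.94 and 10.95, and rose by 0.97 ± 0.07 (adjusted p = 1.48e-10). Srsf4 read 10.14, 10.29 and 10.36, against 11.17, 11.10 and 11.18, and fell by 0.88 ± 0.08 (adjusted p = 2.45e-08). The groups were apart in all 3 genes. Srsf1 rose by 0.69 ± 0.09, Srsf6 by 0.47 ± 0.08, Srsf9 by 0.47 ± 0.05 and Srsf7-ps4 by 0.36 ± 0.14, and Srsf11 fell by 0.33 ± 0.11. The Srsf7-ps4 call was lost in 8 of the alternatives, with changes from 0.26 to 0.44.

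Of the 17 hnRNPs, 8 were higher and 2 lower, or 58.8% called, beside 44% of all genes (24.7% higher and 19.4% lower). Hnrnpm read 10.32, 10.33 and 10.26 with cytokines and BRD0476, against 9.51, 9.44 and 9.83 with cytokines and DMSO, a rise of 0.71 ± 0.10 (adjusted p = 4.5e-06). Hnrnph1 read 11.54, 11.53 and 11.64, against 10.82, 11.06 and 10.97, a rise of 0.62 ± 0.06 (adjusted p = 5.45e-08). Hnrnpul1 read 7.62, 7.72 and 7.78, against 9.05, 9.40 and 8.19, a fall of 1.18 ± 0.34 (adjusted p = 0.00704) that came to 1.52 without the 3 arrays apart and was not called without replicate 2 of cytokines with DMSO (adjusted p = 0.053). Hnrnpd fell by 0.46 ± 0.15 (adjusted p = 0.0173), a call lost without replicate 1 or 2 of cytokines with DMSO. The BRD0476 arrays of Hnrnpm, Hnrnph1 and Hnrnpul1 did not overlap the arrays with DMSO.

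Sf3b5 was higher by 0.62 ± 0.07, Sf3b6 by 0.56 ± 0.07 and Sf3a3 by 0.36 ± 0.07 with cytokines and BRD0476, and Sf3a1 was lower by 0.43 ± 0.09 and Sf3b1 by 0.31 ± 0.08. In the Sm core 4 of 7 genes were higher, Snrpd1 by 0.57 ± 0.07, Snrpd3 by 0.31 ± 0.07, Snrpf by 0.26 ± 0.07 and Snrpe by 0.17 ± 0.05. The share called was 55.6% of the SF3A and SF3B subunits and 57.1% of the Sm core. Among all genes it was 44% (24.7% higher and 19.4% lower). None of the 3 U1 and U2 protein genes was called. Sf3b4 changed by -0.44 ± 0.25 and was not called (adjusted p = 0.163). Without the 3 arrays apart, which were picked by genes that include Sf3b4, it changed by -0.72. The second probe set of Sf3a1 rose by 0.74 ± 0.07, opposite to the one used.

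The arrays with cytokines and BRD0476 were also set against those with BRD0476 and no cytokines, a comparison that uses none of the arrays with DMSO. At 6 h, 2 members were higher and 4 lower, or 11.5%, beside 20.9% of all genes (10.3% higher and 10.7% lower), and the groups did not overlap for 14, beside 38.4%. Snrpa1, a U2 protein, was higher by 0.36 ± 0.06 and Hnrnpdl by 0.17 ± 0.05, and Srsf7-ps4 was lower by 0.50 ± 0.14, Clk3 by 0.29 ± 0.07, Rsrp1 by 0.29 ± 0.09 and Sf3b6 by 0.20 ± 0.07. Clk1 read 8.13, 7.94 and 8.10 with cytokines and BRD0476, against 8.01, 8.03 and 8.04 with BRD0476 alone, overlapping groups with a change of 0.03 ± 0.08 (adjusted p = 0.871). Srsf5 changed by -0.07 ± 0.08, Srsf2 by -0.13 ± 0.07, Clk4 by -0.01 ± 0.10 and Clk2 by 0.01 ± 0.07, and none of these was called. The count of 6 was 7 without the 3 arrays apart, and fell to 2 without replicate 3 of BRD0476 alone and to 3 without replicate 1 of cytokines with BRD0476.

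At 12 h with BRD0476, cytokines against none gave 1 higher and 6 lower members, or 13.5%, beside 27.7% of all genes (9.19% higher and 18.5% lower), and the groups did not overlap for 17, beside 41.1%. Hnrnpul1 rose by 1.01 ± 0.34 (adjusted p = 0.03), with 7.94, 8.96 and 9.32 with cytokines and BRD0476 against 7.59, 7.71 and 7.90 with BRD0476 alone. The low value of 7.94 was from the array that stood apart, and it still lay above the other group. Rsrp1 fell by 0.42 ± 0.09, Srsf5 by 0.30 ± 0.08, Srsf9 by 0.29 ± 0.05, Clk3 by 0.26 ± 0.07, Sf3b6 by 0.23 ± 0.07 and Hnrnpr by 0.19 ± 0.05. Without the 3 arrays apart 14 members were called, and without replicate 2 of BRD0476 alone 4 were.

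The interaction tests whether the effect of BRD0476 differed between cells with cytokines and cells without. At 6 h it was called for 29 of the 52 genes, 22 higher and 7 lower, or 55.8%, beside 33.2% of all genes (18.8% higher and 14.4% lower), and for 34 without the 3 arrays apart. It was 1.66 ± 0.11 for Srsf5, 0.98 ± 0.09 for Srsf2, 0.95 ± 0.14 for Hnrnpm and 0.81 ± 0.09 for Hnrnph1. It was -1.26 ± 0.11 for Clk1, -1.23 ± 0.14 for Clk4, -0.88 ± 0.12 for Srsf4 and -0.74 ± 0.10 for Clk2. The adjusted p was below 2e-05 in each of these 8 genes.

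BRD0476 alone changed few members. Without cytokines at 6 h, 0 members were higher and 1 lower with BRD0476 than with DMSO, or 1.92%, beside 3.53% of all genes (1.68% higher and 1.85% lower), and the groups did not overlap for 7, beside 20.5%. That gene was Clk1, which read 8.01, 8.03 and 8.04 with BRD0476, against 8.36, 8.50 and 8.14 with DMSO, a fall of 0.31 ± 0.08 (adjusted p = 0.0327) that was lost in 5 of the 6 fits that left out 1 array. At 12 h without cytokines, limma called 0 members (0%), beside 4.66% of all genes (2.02% higher and 2.64% lower). An unadjusted limma p under 0.05 was found for 5 of the 52 members, a smaller share than the 2247 of all 14217 genes. The groups did not overlap for 20 members, beside 30.1% of all genes. With array weights in the fit, 4 members were called. Among the 5 were Clk3 (-0.23 ± 0.07), Rsrp1 (-0.26 ± 0.09), Clk1 (-0.22 ± 0.08) and Clk4 (-0.21 ± 0.10).

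**Figure D5:**
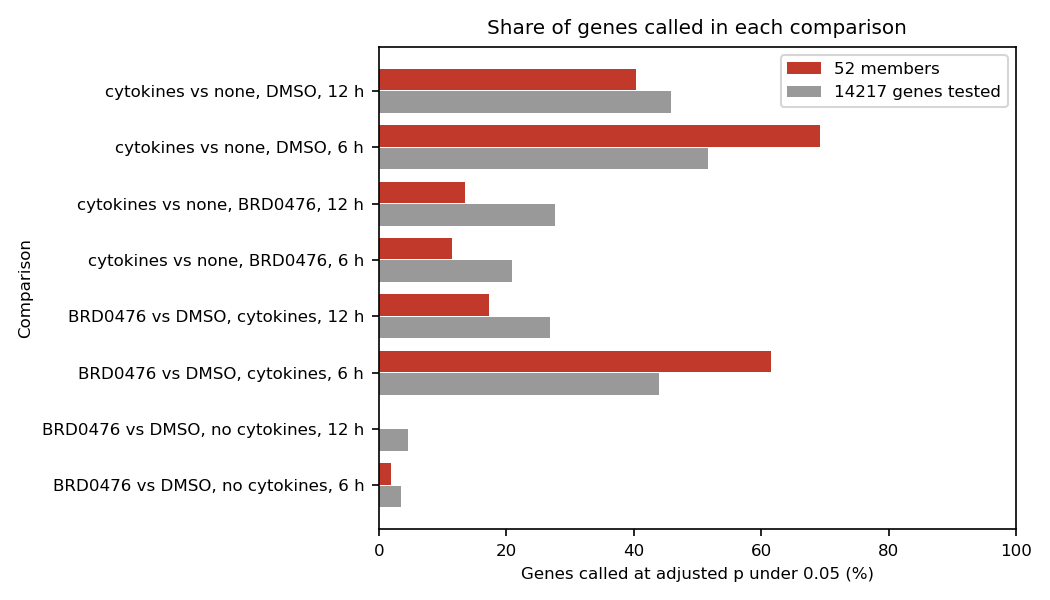
Share of genes with an adjusted p under 0.05 (horizontal axis, percent) among the 52 members and among all 14217 genes tested, in 8 comparisons (vertical axis). The members' share exceeded that of all genes in 2 comparisons, cytokines against none with DMSO at 6 h (69.2% and 51.7%) and BRD0476 against DMSO with cytokines at 6 h (61.5% and 44%).

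With cytokines at 12 h, BRD0476 against DMSO gave 5 higher and 4 lower members, or 17.3%, beside 26.9% of all genes (16.3% higher and 10.6% lower), and the groups did not overlap for 14, beside 35.3%. Clk1 read 8.41, 8.46 and 8.36 with cytokines and BRD0476, against 9.07, 8.84 and 8.95 with cytokines and DMSO, groups that did not overlap, and fell by 0.54 ± 0.08 (adjusted p = 1.62e-05). Clk3 read 7.75, 7.61 and 7.70, against 7.92, 8.03 and 7.99, and fell by 0.29 ± 0.07 (adjusted p = 0.00412). Hnrnpf read 10.44, 10.25 and 10.21, against 10.45, 10.59 and 10.64, and fell by 0.26 ± 0.09 (adjusted p = 0.0393). The arrays of Clk3 and Hnrnpf were all lower with BRD0476, by a narrow margin for Hnrnpf.

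Srsf4 was lower by 0.25 ± 0.08 in that comparison, and Clk2 was higher by 0.20 ± 0.07 (adjusted p = 0.0485), as were Hnrnph3 by 0.25 ± 0.09, Hnrnpa0 by 0.24 ± 0.05, Snrpd1 by 0.24 ± 0.07 and Hnrnph1 by 0.19 ± 0.06. The calls of Clk2, Hnrnpf, Srsf4 and Hnrnph1 were lost in several alternatives, those of Clk2, Srsf4 and Hnrnph1 also without the 3 arrays apart (adjusted p = 0.394, 0.123 and 0.112). The count of 9 was 6 without the 3 arrays apart, and fell to 5 without replicate 2 of cytokines with DMSO and to 4 without replicate 1 of cytokines with BRD0476. Srsf5 read 10.02, 9.85 and 9.76 with BRD0476, against 9.83, 9.75 and 10.01 with DMSO, a change of 0.01 ± 0.08, and Rsrp1 changed by -0.04 ± 0.09. The interaction at 12 h was called for 2 members, or 3.85%, beside 15.3% of all genes (8.38% higher and 6.89% lower), and for 1 without the 3 arrays apart. The 2 members were Hnrnpa0 (0.31 ± 0.08) and Hnrnph1 (0.31 ± 0.09).

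The effect of BRD0476 under cytokines at 12 h minus that at 6 h was called for 19 members, 6 higher and 13 lower, or 36.5%, beside 25% of all genes (11.9% higher and 13.2% lower), and for 24 without the 3 arrays apart. It was 1.03 ± 0.14 for Clk4, 1.02 ± 0.11 for Clk1, 0.88 ± 0.10 for Clk2 and 0.63 ± 0.12 for Srsf4. It was -1.61 ± 0.11 for Srsf5, -0.91 ± 0.09 for Srsf2, -0.78 ± 0.14 for Hnrnpm and -0.53 ± 0.12 for Rsrp1.

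Other genes of RNA processing were read from 6 lists. With cytokines and DMSO at 6 h, 3 of 17 other splicing kinases and phosphatases rose and 6 fell, or 52.9% called, near the 51.7% of all genes (24.3% higher and 27.4% lower). The kinase Hipk2 rose by 0.99 ± 0.16 and Srpk2, an SR protein kinase, by 0.56 ± 0.12, and Srpk1, another SR protein kinase, fell by 0.88 ± 0.10. Among 21 SR-related and branch-point factors 6 rose, such as Rbm39 (0.80 ± 0.16) and Luc7l (0.76 ± 0.14), and 7 fell, such as Ppig (-0.72 ± 0.22), or 61.9% called. Of 39 factors of the tri-snRNP, the Prp19 complex and the helicases, 13 rose, with Xab2 at 1.80 ± 0.34 and Cwc27 at 0.82 ± 0.09, and 7 fell, with Dhx15 at -0.66 ± 0.08, or 51.3% called, again near the share of all genes.

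In that comparison, with 24.3% of all genes higher and 27.4% lower, 5 of 18 LSm and SMN complex genes rose and 7 fell (66.7% called), with Lsm8 at -1.09 ± 0.08, Gemin4 at -0.80 ± 0.12 and Gemin6 at -0.61 ± 0.07. Of 9 genes of the exon junction complex and nonsense-mediated decay, 3 rose and 4 fell (77.8% called), and Smg5 stood at 0.75 ± 0.18, Upf3b at -0.60 ± 0.10 and Eif4a3 at -0.50 ± 0.07. Of 45 other RNA-binding regulators, 14 rose and 16 fell (66.7% called). Sfpq, a protein of nuclear paraspeckles, fell by 2.15 ± 0.06 and Celf5 by 1.52 ± 0.07, and Celf2 rose by 1.25 ± 0.14. The median changes of the 6 lists were between -0.05 and 0.05, beside 0.00 for all genes.

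At 12 h, where 45.9% of all genes were called with cytokines and DMSO (16% higher and 29.9% lower), the lists lay near or below that share. Of 17 kinases and phosphatases 3 rose and 4 fell (41.2% called), of 21 SR-related factors 3 rose and 2 fell (23.8%), and of 39 factors of the tri-snRNP, Prp19 and helicase list 2 rose and 12 fell (35.9%). Of 18 LSm and SMN genes 3 rose and 6 fell (50%), of 9 exon junction genes 1 rose and 3 fell (44.4%), and of 45 other regulators 7 rose and 13 fell (44.4%). Hipk2 rose by 1.30 ± 0.16, Celf2 by 1.36 ± 0.14 and Elavl2 by 1.19 ± 0.14, and Mbnl2 fell by 1.48 ± 0.08. With BRD0476 in cytokine-treated cells at 6 h, Sfpq was higher by 1.85 ± 0.06 and Celf5 by 1.32 ± 0.07, and Celf2 was lower by 0.96 ± 0.14, Xab2 by 1.24 ± 0.34 and Hipk2 by 0.84 ± 0.16. That comparison shares the arrays with cytokines and DMSO at 6 h with the one against cells without cytokines.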

How the data were processed

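RNA of 24 INS-1E samples was measured on Affymetrix arrays. The deposited intensity values were made by the authors with RMA, per the submitters' processing notes, and its version is not given in the sources used here. They are linear values for 31099 probe sets and were taken to log2 here without further normalization, and array medians were 5.49 to 5.57. After 57 controls were left out, 20826 probe sets with 1 gene symbol gave 14217 genes, each with its probe set of highest mean, and 436 probe sets with several symbols were not used for a gene.

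Group means were fitted to all 24 arrays with limma 3.58.1 (R 4.3.3, eBayes, 16 residual degrees of freedom), and p-values were adjusted by Benjamini-Hochberg over all genes of each of 13 comparisons. With 3 arrays against 3 an exact test cannot go below a two-sided p of 0.1. The median standard error was 0.10 on the log2 scale, and the number of arrays limits the precision. The members and the lists were chosen with earlier results of these data known. Values of every array are given for the CLK kinases, Rsrp1 and the members with the largest called changes (4 rises and 4 falls with cytokines, 3 changes with BRD0476 under cytokines, at each time). Genes of the lists are named where they are among the 3 largest called changes.

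On simulated data for cytokines against none with DMSO at 6 h (14217 genes), 7 of 50 genes given a change of 0.25 were recovered, 32 of 50 at a change of 0.5 and 49 of 50 at both 1 and 2, and 7 of the 144 calls were false. Only these genes were changed in the simulation, whereas 51.7% of all genes were called in the data. The adjustment depends on that share, so the recovered counts do not give the sensitivity in the data. Alternatives were array weights, only the arrays compared, the replicate number as a block, a trended and robust prior, probe sets averaged per gene, omission of dim genes, arrays centred on their medians, quantiles made equal, a pseudocount of 16, leaving out each array in turn and, chosen after seeing the data, leaving out the 3 arrays that stood apart, reading every probe set, and leaving out Srsf7-ps4 and the dim members.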

Additional observations from a re-analysis of the deposited data

Results flagged for a closer look

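The differences between effects given here were each called in a test of that difference (limma, Benjamini-Hochberg adjustment over all genes). These tests share arrays with the comparisons whose largest changes chose the members named besides the CLK kinases and Rsrp1. They are therefore not separate evidence. The effect of BRD0476 differed between cells with and without cytokines at 6 h for 29 members (55.8%), beside 33.2% of all genes. Among the kinases this difference was -1.26 for Clk1, -0.74 for Clk2, -0.58 for Clk3 and -1.23 for Clk4, with adjusted p between 2.3e-08 and 0.000141. It was 0.58 for Rsrp1, -0.88 for Srsf4, 1.66 for Srsf5 and 0.98 for Srsf2. It was 0.95 for Hnrnpm, 0.81 for Hnrnph1, 0.60 for Sf3b6 and 0.23 for Hnrnpr, the smallest of the named members (adjusted p = 0.021).

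At 12 h the same difference was called for 2 members (3.85%), below the 15.3% of all genes. Of the named members it was called for Hnrnph1 (0.31, adjusted p = 0.0184).

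The cytokine effect in DMSO at 12 h minus that at 6 h was called for 20 members (38.5%), beside 28.8% of all genes. It was -1.16 for Clk1, -0.96 for Clk2, -0.48 for Clk3, -1.39 for Clk4 and -0.61 for Srsf4. It was 1.5 for Srsf5, 1.29 for Srsf2, 0.79 for Hnrnpm, 0.72 for Hnrnph1 and 0.42 for Sf3b6. The adjusted p ranged from 2.33e-09 for Srsf2 to 0.00193 for Sf3b6.

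The BRD0476 effect under cytokines at 12 h minus that at 6 h was called for 19 members (36.5%), beside 25% of all genes. It was 1.02 for Clk1, 0.88 for Clk2, 1.03 for Clk4 and 0.63 for Srsf4. It was -0.53 for Rsrp1, -1.61 for Srsf5, -0.91 for Srsf2, -0.78 for Hnrnpm, -0.43 for Hnrnph1 and -0.41 for Sf3b6. Both differences over time use the arrays with cytokines and DMSO at 6 h and at 12 h, so their opposite signs are not independent.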

How the results depend on the processing

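The count of members called kept within 1.5 times its value for cytokines against none with DMSO and for BRD0476 against DMSO with cytokines at 6 h under every alternative run, and no named member reversed its direction where it was called. The smaller counts moved. With array weights, cytokines against none with BRD0476 at 12 h gave 19, BRD0476 alone gave 2 at 6 h and 4 at 12 h, and the interaction at 12 h gave 5. With only the arrays compared, BRD0476 against DMSO with cytokines at 12 h gave 2, BRD0476 alone at 6 h gave 0 and time in untreated DMSO cells gave 2. With a trended robust prior, BRD0476 alone at 6 h gave 2 and the interaction at 12 h gave 4. Without the 3 arrays that stood apart, chosen after seeing the data, cytokines against none with BRD0476 at 12 h gave 14, BRD0476 alone at 6 h gave 2 and the interaction at 12 h gave 1. The cause was not tested.

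Leaving out each array in turn gave 30 to 39 members for cytokines with DMSO at 6 h and 14 to 20 at 12 h, 2 to 5 for cytokines with BRD0476 at 6 h and 4 to 10 at 12 h, 28 to 35 for BRD0476 under cytokines at 6 h and 4 to 8 at 12 h, and 0 to 1 for BRD0476 alone at both times. The interaction gave 25 to 32 at 6 h and 1 to 3 at 12 h, the cytokine effect over time 19 to 22, the BRD0476 effect over time 16 to 22, and time in untreated DMSO cells 3 to 4. The count for BRD0476 alone at 6 h was 0 without replicate 1 or 2 of DMSO or without any of the 3 BRD0476 arrays, and that at 12 h was 1 without replicate 3 of DMSO. The interaction at 12 h was 1 without replicate 2 of DMSO or replicate 1 of cytokines with BRD0476.

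Arrays with the same replicate number in different groups had a median correlation of their deviations of -0.04 over 84 pairs (-0.48 to 0.72), against 0.01 over 168 pairs with other numbers. In none of the 8 comparisons between groups that were checked did all 3 same-numbered pairs correlate above 0.1, so the numbers were not taken to pair the samples. With the replicate number as a block the counts were 35 for cytokines with DMSO at 6 h, 20 at 12 h, 31 for BRD0476 under cytokines at 6 h and 6 at 12 h. Over 221 results of named members, 1821 values under alternatives held 1610 on the same side of the threshold, 124 no longer past it, 87 newly past it and 0 reversed. Dim probe sets (Srsf3, Srsf7) and cross-matching probes limit what can be read for single genes.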

Other observations

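Probe sets annotated to several symbols were not counted as members. The 2 probe sets annotated to both Srsf3 and LOC100910660 were lower by 0.88 ± 0.08 and 1.18 ± 0.09 with cytokines and DMSO at 6 h than with DMSO alone (limma adjusted p = 4.96e-09 and 1.64e-10). With BRD0476 in cytokine-treated cells at 6 h they were higher than with cytokines and DMSO by 0.67 ± 0.08 and 0.97 ± 0.09. At 12 h with cytokines and DMSO their changes were -0.05 ± 0.08 and -0.24 ± 0.09. The dim probe set annotated to Srsf3 alone was not called in these comparisons. A probe set annotated to Snrpg, Snrpgl1 and Snrpgl2, which read 12.01 with cytokines and DMSO and 12.23 with DMSO alone at 6 h, fell by 0.22 ± 0.06, and one annotated to Snrpc and Snrpc-ps3 changed by -0.07 ± 0.07. The probe sets annotated to both Snrpn and Snurf, brighter than the one used for Snrpn, changed by -0.12 ± 0.12 and -0.19 ± 0.15 at 6 h and were not called.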
